A study of Homo sapiens with 6 samples.

Results

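NRF2 and glutathione genes are described here in A549, a lung adenocarcinoma cell line, with and without knockdown of C19orf12. The set holds 10 named genes of 20824 listed in the files: NFE2L2, KEAP1, NQO1, TXNRD1, SRXN1, GCLC, GCLM, HMOX1, OSGIN1 and MGST1. They were picked by name from the pathway, with earlier results of these data known, and matched through their Entrez gene IDs. All 10 were listed in each file and passed the filter on low counts. The knockdown group is A549 carrying a short hairpin RNA against C19orf12, a gene of mitochondria and endoplasmic reticulum, and the scramble group is A549 carrying a scrambled hairpin, which the submitters use as wild type. Each group has 3 libraries of oligo-dT selected RNA, and no drug, time or further allele is given for either. All 3 knockdown titles carry the same index before the replicate number, which could name a single hairpin or clone, but the labels do not explain it. Effects of a hairpin or clone apart from the loss of C19orf12 were not tested. The labels do not state whether the libraries of a group are separate cultures, or how many clones or hairpin designs were used. The p-values therefore measure the spread between these libraries, which may be technical.

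NFE2L2 encodes NRF2, a transcription factor that pairs with small MAF proteins on antioxidant response elements and drives genes of glutathione synthesis, thioredoxin reduction, quinone and heme breakdown and NADPH supply. KEAP1 is the adaptor that hands NRF2 to the CUL3 ubiquitin ligase, so NRF2 is held low mainly by protein degradation and its transcript is not a measure of its activity. A549 is widely known to carry a damaging KEAP1 mutation with high NRF2 target expression. The deposited gene values hold no genotype, so the mutation was not analysed here.

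Totals of estimated counts ran from 10229890 to 10261193 in knockdown and from 10275679 to 10647587 in scramble libraries. C19orf12, the target, measured 24.2, 26.4 and 25.2 CPM (counts scaled to library size by TMM) in knockdown and 42.5, 41.1 and 63.3 CPM in scramble replicates 1 to 3. The groups did not overlap, and its log2 fold change of knockdown over scramble was -0.95 (SE 0.20, adjusted p = 0.015 by edgeR). Omitting scramble replicate 3 gave -0.73 (adjusted p = 3.17e-08). Of 8 epithelial markers 7 were listed in every library, and their summed level was 5998 to 6099 FPKM (counts scaled to transcript length and depth) in knockdown and 2000 to 2725 FPKM in scramble libraries, nearly all of it from KRT8 and KRT18. Of 7 fibroblast markers COL1A1 alone was listed in every library (sum 4.08 to 4.5 FPKM in knockdown, 6.57 to 7.75 FPKM in scramble). Of 7 endothelial markers 3 were (0.64 to 0.89 FPKM in knockdown, 0.77 to 1.17 FPKM in scramble), and of 7 leukocyte markers 5 (35 to 39.3 FPKM in knockdown, 33 to 34.5 FPKM in scramble), nearly all from CD68 and LYZ, while CD3E was at 0 throughout. The epithelial sum thus differed between the groups, and its part in the results below was not tested. These are bulk samples of a single cell line, so the sums are not read as shares of cell types. Fewer cells expressing a marker and less RNA per cell cannot be told apart in them. Scramble replicate 3 stood apart. Across genes its log2 CPM had a correlation of 0.951 with scramble replicate 1 and 0.9519 with scramble replicate 2, which had 0.9891 with each other. With it, replicates varied by an edgeR coefficient of variation of 18.9%, and without it by 2.97%. Fold changes of the 10 genes and of the pathway genes named are therefore given with and without that library, and p-values without it rest on that small spread and on 2 scramble libraries.

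Promoter letters of these genes are shown because the antioxidant response element is the DNA through which NRF2 acts. The core searched was TGACNNNGC, on both strands, in RefSeq windows of GRCh38.p14 from 250 bases before to 50 bases after each annotated start. It was in 5 of 14 windows belonging to 9 of the genes (35.7%) and in 13.3% of all 35116 promoter windows. HMOX1 has no window in the table. Capitals mark the matches, read 5′ to 3′ on the gene's strand; a match on the other strand appears in its reverse complement.
GCLM, chr1:93909431-93909494, minus strand: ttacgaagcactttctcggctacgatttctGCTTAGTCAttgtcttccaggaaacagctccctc
KEAP1, chr19:10502772-10502855, minus strand: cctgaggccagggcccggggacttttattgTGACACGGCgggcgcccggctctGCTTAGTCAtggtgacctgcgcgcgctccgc
TXNRD1, upstream start, chr12:104215650-104215718, plus strand: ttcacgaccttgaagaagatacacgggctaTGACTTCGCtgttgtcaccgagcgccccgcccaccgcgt
TXNRD1, downstream start, chr12:104286900-104286968, plus strand: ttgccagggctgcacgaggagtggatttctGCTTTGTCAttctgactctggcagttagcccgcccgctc

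The match GCTTAGTCA stood 34 bases before the start of GCLM and 31 bases before that of KEAP1, in identical letters. KEAP1, the NRF2 inhibitor, also held a forward match 54 bases before the same start. The matches of TXNRD1 lay 99 and 102 bases before its annotated starts; a further match reached past the upstream start, and the match of MGST1 lay after its start, and neither is printed. A second motif, TGANTCA (the AP-1 type, which can overlap the response element), was in 1 of the 14 windows (7.14%) and in 7.71% of all windows. That window belongs to OSGIN1 and is shown as the only match of this motif among the 14, a share no higher than that of all windows.
OSGIN1, chr16:83953113-83953179, plus strand: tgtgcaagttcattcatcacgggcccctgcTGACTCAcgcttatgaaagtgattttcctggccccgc
The windows of NFE2L2, NQO1, SRXN1 and GCLC held neither motif, which says only that these letters are not in these windows.

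Across the 10 genes, MGST1 rose and SRXN1 fell in knockdown cells, and the other 8 did not pass the test with all 6 libraries. By edgeR's quasi-likelihood test, with p-values adjusted over all 14812 genes tested, 1 gene was called higher and 1 lower, where 5.89% of all tested genes were called higher and 5.64% lower (11.5% in either direction). With 10 genes, 1 call in a direction is the smallest count above 0, so these shares are not read as apart from the background. DESeq2 and limma-voom also called 1 higher and 1 lower. The median log2 fold change of the 10 genes was -0.07, against 0.02 over all tested genes. The knockdown and scramble libraries did not overlap for 2 genes that were higher (TXNRD1 and MGST1) and 3 that were lower (NQO1, SRXN1 and OSGIN1) in knockdown, where 18.4% and 18.6% of all tested genes were separated in these directions (37.0% in either). Without scramble replicate 3, 4 genes were called higher and 5 lower, where 25.7% of 15029 tested genes were called higher and 23.8% lower (49.5% in all). Leaving out knockdown replicate 1, 2 or 3 called 0 of the 10 genes, where 5.09%, 4.93% and 4.85% of all tested genes were called. Leaving out scramble replicate 1 called SRXN1 and MGST1, where 8.95% of tested genes were called, and leaving out scramble replicate 2 called SRXN1, where 8.35% were.

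**Figure D1:**
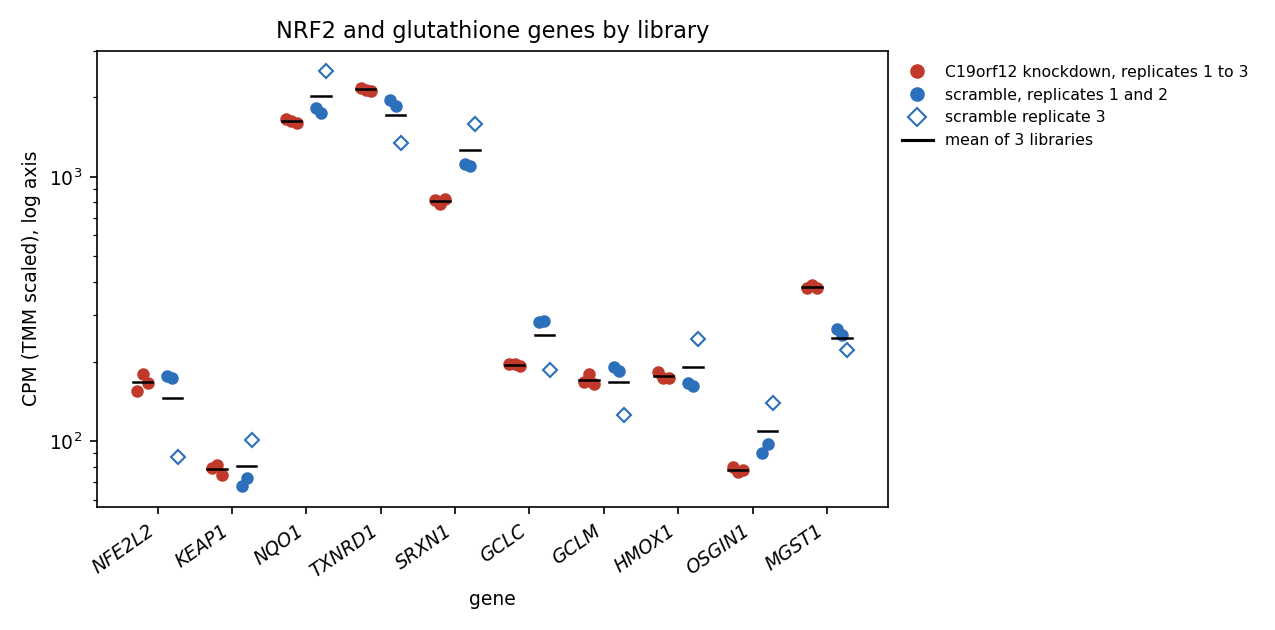
CPM (TMM scaled, log axis) of the 10 genes in each library; red circles are the 3 knockdown libraries, blue circles scramble replicates 1 and 2, open diamonds scramble replicate 3, and bars the mean of 3 libraries. The knockdown libraries lie close together for every gene, and scramble replicate 3 lies away from the other scramble libraries, at 86.8 CPM for NFE2L2 and 2506 CPM for NQO1.

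NFE2L2, the gene of NRF2 itself, measured 155, 179 and 166 CPM in knockdown and 176, 174 and 86.8 CPM in scramble replicates 1 to 3. Knockdown replicates 1 and 3 lay below scramble replicates 1 and 2, knockdown replicate 2 lay just above them, and all lay far above scramble replicate 3, so the groups overlapped. The means were 167 ± 11.9 CPM in knockdown and 145 ± 50.8 CPM in scramble (SD, n = 3 each), and edgeR gave a log2 fold change of 0.20 (SE 0.25, adjusted p = 0.694). Without scramble replicate 3 it was -0.07 (SE 0.05, adjusted p = 0.284 by edgeR), the 1 gene of the 10 not called in that setting. A difference in the NRF2 transcript was not detected in either setting.

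KEAP1, whose protein presents NRF2 for degradation, measured 79.3, 81.2 and 74.7 CPM in knockdown and 67.6, 72.4 and 101 CPM in scramble replicates 1 to 3. The knockdown libraries lay above scramble replicates 1 and 2 and below scramble replicate 3. The fitted log2 fold change by edgeR came to -0.04 (SE 0.18, adjusted p = 0.934) and turned to 0.16 (SE 0.06, adjusted p = 0.0246 by edgeR) without scramble replicate 3. The sign of this difference thus changes with that library.

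NQO1, a quinone reductase and the most used marker of NRF2 activity, measured 1651, 1623 and 1604 CPM in knockdown and 1818, 1740 and 2506 CPM in scramble replicates 1 to 3. All knockdown values lay under all scramble values, with the nearest pair close together. EdgeR gave a log2 fold change of -0.31 (SE 0.16, adjusted p = 0.268). Without scramble replicate 3 the difference was smaller in size but called lower, at -0.13 (SE 0.03, adjusted p = 0.000422 by edgeR), which is a level of 0.914 of scramble.

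SRXN1 encodes sulfiredoxin, which restores peroxiredoxins whose active cysteine has been overoxidised. It measured 815, 789 and 822 CPM in knockdown and 1123, 1099 and 1585 CPM in scramble replicates 1 to 3. The groups stood well apart, and scramble replicate 3 was the highest. SRXN1 fell to 808 ± 17.3 CPM in knockdown, against 1269 ± 274 CPM in scramble (SD, n = 3 each), a log2 fold change of -0.65 (SE 0.17, adjusted p = 0.0354 by edgeR). The knockdown level was 0.637 of scramble, and 0.728 without scramble replicate 3 (log2 fold change -0.46, SE 0.03, adjusted p = 1.42e-11 by edgeR). The call with all 6 libraries was lost when a knockdown library was left out, with edgeR adjusted p of 0.149, 0.163 and 0.148 without replicates 1, 2 and 3.

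TXNRD1, the cytosolic thioredoxin reductase, measured 2175, 2126 and 2123 CPM in knockdown and 1962, 1851 and 1346 CPM in scramble replicates 1 to 3. All knockdown values lay above all scramble values, opposite in direction to SRXN1 and NQO1. The fitted log2 fold change by edgeR came to 0.32 (SE 0.16, adjusted p = 0.259), while leaving out scramble replicate 3 gave 0.17 (SE 0.03, adjusted p = 3.23e-05 by edgeR), a level of 1.12 times scramble. EID3 and TXNRD1 overlap in the RefSeq annotation, but EID3 measured 5.78 CPM in knockdown and 5 CPM in scramble on average.

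GCLC and GCLM encode the catalytic and the modifier subunit of glutamate-cysteine ligase, the rate-limiting enzyme of glutathione synthesis. GCLC measured 195, 195 and 193 CPM in knockdown and 283, 285 and 186 CPM in scramble replicates 1 to 3. The knockdown libraries were nearly equal, far below scramble replicates 1 and 2 and just above scramble replicate 3. The log2 fold change of GCLC was -0.37 (SE 0.19, adjusted p = 0.256 by edgeR) with all 6 libraries and -0.55 (SE 0.04, adjusted p = 4.5e-11 by edgeR) without scramble replicate 3, where the knockdown level was 0.684 of scramble.

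GCLM measured 168, 179 and 165 CPM in knockdown and 190, 184 and 126 CPM in scramble replicates 1 to 3. The knockdown values lay between scramble replicate 3 and the other scramble libraries. EdgeR gave a log2 fold change of 0.03 (SE 0.18, adjusted p = 0.937), and it turned to -0.13 (SE 0.04, adjusted p = 0.0179 by edgeR) without scramble replicate 3. GCLM and NQO1 were the genes of the 10 with estimated counts more than 0.005 from a whole number in some library, so some of their reads were shared with other genes in the estimate.

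The FPKM of GCLC divided by that of GCLM, a ratio chosen after its values were seen, was 1.54, 1.45 and 1.56 in knockdown and 1.98, 2.06 and 1.95 in scramble replicates 1 to 3. In this ratio scramble replicate 3 sat with the other scramble libraries. The mean was 1.51 ± 0.0609 in knockdown and 2 ± 0.0543 in scramble (SD, n = 3 each), and the 2-sided exact permutation p on the log2 ratio was 0.1, the smallest that 3 against 3 libraries allow. In the same family of 3 ratios, SRXN1 over TXNRD1 was 0.552, 0.547 and 0.572 in knockdown and 0.842, 0.875 and 1.74 in scramble replicates 1 to 3 (exact permutation p = 0.1). Scramble replicate 3 lay far above the other scramble libraries, and all 3 lay above knockdown. NFE2L2 over KEAP1 was 1.75, 1.98 and 1.99 in knockdown and 2.34, 2.15 and 0.772 in scramble replicates 1 to 3 (exact permutation p = 1). Scramble replicates 1 and 2 lay above all knockdown libraries and scramble replicate 3 below them, so the direction turns with that library. Adjusted over the 3 ratios these p-values were 0.15, 0.15 and 1 for the ratios as listed.

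HMOX1, the inducible heme oxygenase, which is also repressed by BACH1, measured 183, 173 and 174 CPM in knockdown and 166, 161 and 243 CPM in scramble replicates 1 to 3. The knockdown values lay between scramble replicates 1 and 2 and scramble replicate 3. The fitted log2 fold change by edgeR came to -0.11 (SE 0.18, adjusted p = 0.781) and turned to 0.11 (SE 0.04, adjusted p = 0.0418 by edgeR) without scramble replicate 3. No direction can be given for HMOX1 that holds in both settings.

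OSGIN1, an oxidative stress-induced growth inhibitor, measured 79.7, 76.7 and 77.5 CPM in knockdown and 90.5, 97.9 and 139 CPM in scramble replicates 1 to 3. Every knockdown library was under every scramble library. EdgeR gave a log2 fold change of -0.49 (SE 0.19, adjusted p = 0.141), with an unadjusted p of 0.029, while leaving out scramble replicate 3 gave a lower call at -0.27 (SE 0.05, adjusted p = 0.000215 by edgeR). OSGIN1 overlaps NECAB2, which measured 4.05 CPM in knockdown and 1.74 CPM in scramble on average.

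MGST1 encodes a membrane-bound glutathione transferase and peroxidase of the endoplasmic reticulum and outer mitochondrial membrane. It measured 380, 390 and 380 CPM in knockdown and 265, 251 and 221 CPM in scramble replicates 1 to 3. The groups were far apart, and scramble replicate 3 was the lowest. MGST1 rose to 384 ± 5.82 CPM in knockdown, against 246 ± 22.7 CPM in scramble (SD, n = 3 each), a log2 fold change of 0.64 (SE 0.14, adjusted p = 0.017 by edgeR) or 1.56 times scramble. Without scramble replicate 3 it was 0.57 (SE 0.04, adjusted p = 2.1e-11 by edgeR), or 1.49 times. The call with all 6 libraries was lost without knockdown replicate 1, 2 or 3 (edgeR adjusted p = 0.106, 0.12 and 0.107) and without scramble replicate 2 (0.0548).

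**Figure D2:**
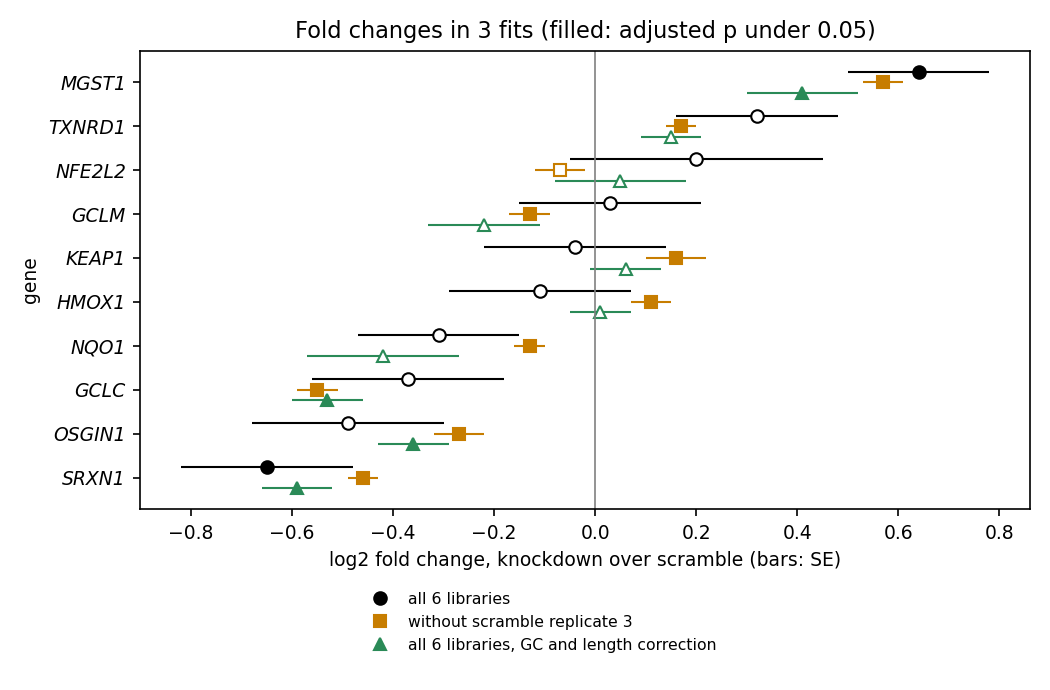
Log2 fold change of knockdown over scramble for each of the 10 genes, with SE bars, from all 6 libraries (circles), without scramble replicate 3 (squares) and with a correction for GC content and length (triangles); filled symbols passed an adjusted p of 0.05. MGST1 lies right and SRXN1 left of 0 with filled symbols in all 3, while NFE2L2, GCLM, KEAP1 and HMOX1 lie on both sides of 0.

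Transcript GC content moved with the position of scramble replicate 3. Tested genes were divided into 10 equal bins by GC content, and scramble replicate 3 was set against the average of the other scramble libraries in log2 CPM. The bin with the lowest GC content (median 37.9%) had a median difference of -1.0 and that with the highest (64.3%) one of 0.49. Among the genes here, OSGIN1 (64.7% GC), KEAP1 (60.6%), HMOX1 (58.1%) and SRXN1 (53.6%) were higher in scramble replicate 3 by 0.56, 0.53, 0.57 and 0.51, near the medians of their bins (0.49, 0.50, 0.48 and 0.43). NFE2L2 (43.4%), GCLC (44.4%), GCLM (40.1%) and TXNRD1 (44.3%) had differences of -1.01, -0.61, -0.56 and -0.50, where their bins had -0.60, -0.25, -0.85 and -0.25. NQO1 (46.6%) was higher by 0.49, where the median of its bin was -0.25, and MGST1 (37.9%) differed by -0.23, where its bin had -1.0. The part of GC content in each gene's shift was not tested.

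**Figure D3:**
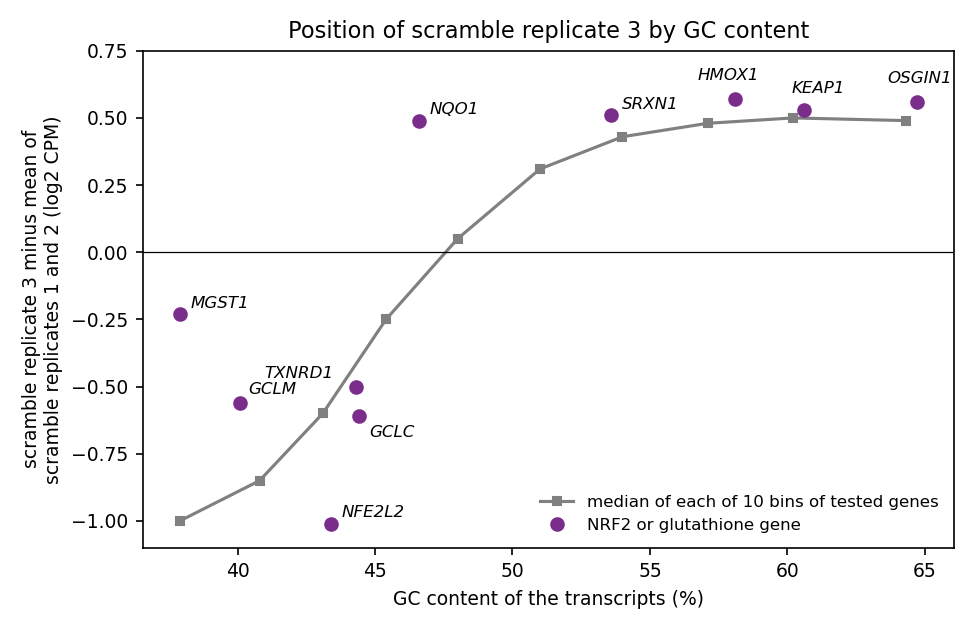
Difference in log2 CPM between scramble replicate 3 and the mean of scramble replicates 1 and 2 (vertical) against GC content of the transcripts in percent (horizontal); grey squares are medians of 10 equal bins of all tested genes and purple points the 10 genes. The grey line climbs from -1.0 to 0.49, with NQO1 and MGST1 well above it and NFE2L2 below it.

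A correction of each library for GC content and length, chosen after the data were seen, left MGST1 higher (0.41, SE 0.11, adjusted p = 0.0236 by edgeR) and SRXN1 lower (-0.59, SE 0.07, adjusted p = 0.000415). It also called GCLC lower (-0.53, SE 0.07, adjusted p = 0.000634 by edgeR) and OSGIN1 lower (-0.36, SE 0.07, adjusted p = 0.00364). In that setting 15.2% of 14231 tested genes were called higher and 19.2% lower (34.5% in all). NQO1 at -0.42 (adjusted p = 0.0637 by edgeR) and TXNRD1 at 0.15 (adjusted p = 0.073) did not pass, nor did NFE2L2, KEAP1, GCLM and HMOX1. For genes off the GC trend, such as NQO1 and MGST1, the correction can move scramble replicate 3 away from the other scramble libraries. The corrected value of NQO1 was larger in size than its -0.31 with all 6 libraries and its -0.13 without scramble replicate 3. SRXN1 and MGST1 were the genes of the 10 called in all 3 fits.

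Levels between genes were compared on the FPKM scale, which is per length. In knockdown the order was NQO1 (612 ± 8.0 FPKM), TXNRD1 (523), MGST1 (405), SRXN1 (292), HMOX1 (108), NFE2L2 (56.4), GCLC (49.4), OSGIN1 (39.0), GCLM (32.6) and KEAP1 (29.6), and no neighbours in this order overlapped over the 3 libraries. In scramble NQO1 was also first (788 ± 126 FPKM), followed by SRXN1 (474), TXNRD1 (441), MGST1 (271), HMOX1 (121), GCLC (67.0), OSGIN1 (56.6), NFE2L2 (51.8), GCLM (33.4) and KEAP1 (31.3). There SRXN1 overlapped TXNRD1, and each of GCLC, OSGIN1, NFE2L2, GCLM and KEAP1 overlapped its neighbour. SRXN1 was below TXNRD1 in scramble replicates 1 and 2 (means of 428 and 499 FPKM) and above it in scramble replicate 3 alone (566 and 325 FPKM), so their order by mean in scramble rests on that library. SRXN1 was below MGST1 in each knockdown library and above it in each scramble library. NQO1 ranked 119th to 124th of all listed genes in knockdown and 88th to 95th in scramble libraries. All 10 genes lay in the top 14.1% of listed genes in each knockdown library and in the top 17.7% in each scramble library. The mean transcript length of a gene, which moves when its isoforms do, differed by at most 0.408% between libraries (TXNRD1).

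By the root mean square difference of centred log2 CPM over the 6 libraries, among 11755 genes with at least 5 CPM, the genes most like NFE2L2 included ZWILCH (0.0279). ZWILCH measured 59.1, 67.5 and 63.4 CPM in knockdown and 67.8, 66.1 and 34.6 CPM in scramble replicates 1 to 3. The nearest to NQO1 were JOSD1 (0.0142), RAPGEF1 (0.0198) and UBE2Z (0.0198). JOSD1 measured 166, 162 and 164 CPM in knockdown and 182, 175 and 249 CPM in scramble replicates 1 to 3. In both patterns scramble replicate 3 is the most distant library.

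The rest of the pathway was read through 7 lists holding 158 genes in all, 17 of them in more than 1 list. Of the 140 tested, 6 rose (4.29%) and 14 fell (10%), where 5.89% of all genes were called higher and 5.64% lower. The median log2 fold change was -0.01 against 0.02 over all genes. Without scramble replicate 3, 55 were called higher (39.3%) and 42 lower (30%), where 25.7% and 23.8% of all genes were. With so few genes in a list, 1 or 2 calls are not read as apart from these shares. The lists were chosen with earlier results of these data known, so no list share is independent of that choice. In these paragraphs adjusted p-values are edgeR's over all genes with all 6 libraries, and errors are SD of 3 libraries.

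Regulators and partners of NRF2 included MAFF and NFE2L1, both lower in knockdown. Of 25 tested 0 rose and 2 fell (8%, against 5.64% of all genes; median log2 fold change 0.07); at an unadjusted p under 0.05, 1 was higher and 4 lower, and DESeq2 and limma-voom each called 0 higher and 2 lower. MAFF, a small MAF partner, fell to 16.3 ± 1.91 CPM in knockdown, against 43.3 ± 10.2 CPM in scramble (log2 fold change -1.41, adjusted p = 0.00257, and -1.20 without scramble replicate 3). NFE2L1, whose protein NRF1 is a relative of NRF2, fell to 461 ± 10.8 CPM in knockdown, against 851 ± 173 CPM in scramble (-0.88, adjusted p = 0.00874; 0.0549 to 0.0653 when a knockdown library was left out, and -0.70 without scramble replicate 3). MAFK (0.27, adjusted p = 0.374) and the autophagy receptor gene SQSTM1 (-0.55, adjusted p = 0.0795) did not pass. The fit that omits scramble replicate 3 called MAFK higher (0.46, adjusted p = 8.11e-11) and SQSTM1 lower (-0.33, adjusted p = 8.46e-10), among 9 higher (36%, against 25.7% of all genes) and 7 lower (28%, against 23.8%).

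Other NRF2 targets were all lower where they were called with all 6 libraries. Of 43 tested 0 rose, against 5.89% of all genes, and 8 fell (18.6%, against 5.64%), with a median log2 fold change of -0.15. The 8 include both TRIM16L and its close copy TRIM16 (-0.66, adjusted p = 0.0434). Their estimated counts were not whole numbers, so their calls may not be separate. At an unadjusted p under 0.05, 4 were higher and 15 lower, DESeq2 called 1 higher and 8 lower, and limma-voom 0 higher and 6 lower. The nuclear receptor gene NR0B1 fell to 34.7 ± 3.4 CPM in knockdown, against 78 ± 13 CPM in scramble (-1.17, adjusted p = 0.0031, and -1.02 without scramble replicate 3). The ferritin heavy chain gene FTH1 (-0.94, adjusted p = 0.00714), the export pump gene ABCC3 (-0.87, adjusted p = 0.0087) and TRIM16L (-0.83, adjusted p = 0.013) also fell; FTH1 and TRIM16L have close copies in the genome, so their counts are uncertain. Without scramble replicate 3 the values were -0.73 for FTH1, -0.69 for ABCC3 and -0.64 for TRIM16L. The calls of ABCC3 and TRIM16L were lost when a knockdown library was left out (adjusted p from 0.0522 to 0.0873). AKR1B10, an aldo-keto reductase, was the most abundant by counts and measured 6107 ± 95 CPM in knockdown and 5823 ± 1078 CPM in scramble (0.07, adjusted p = 0.822), and the ferritin light chain gene FTL was at -0.33 (adjusted p = 0.275). In scramble replicate 3 the median target exceeded the other scramble libraries by 0.50 in log2 CPM, where the median of all genes did so by 0.13. Without that library 14 targets were called higher (32.6%, against 25.7% of all genes) and 20 lower (46.5%, against 23.8%), so the called genes were then on both sides. AKR1B10 was then called higher (0.23, adjusted p = 7.21e-08) and FTL lower (-0.11, adjusted p = 0.000486).

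Glutathione synthesis and turnover showed 0 higher and 1 lower (5%, against 5.64% of all genes) of 20 tested (median log2 fold change 0.01); at an unadjusted p under 0.05, 4 were higher and 3 lower, and DESeq2 and limma-voom each called 0 higher and 1 lower. CHAC1, a glutathione-degrading enzyme, fell to 18 ± 1.35 CPM in knockdown, against 36.9 ± 10.2 CPM in scramble (-1.04, adjusted p = 0.0137; 0.0614 to 0.0883 when a knockdown library was left out, and -0.79 without scramble replicate 3). SLC7A11, the cystine carrier that supplies the cysteine of glutathione, was at 597 ± 27.9 CPM in knockdown and 862 ± 411 CPM in scramble, and scramble replicate 3 was at 388 CPM (-0.53, adjusted p = 0.371). Without that library SLC7A11 was called lower at -0.88 (adjusted p = 1.89e-15). Its partner chain gene SLC3A2 was at -0.12 (adjusted p = 0.725) with all libraries and at 0.09 (adjusted p = 0.00826) without scramble replicate 3. In that setting 8 genes of the list were called higher (40%, against 25.7% of all genes) and 5 lower (25%, against 23.8%).

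Glutathione transferases and their membrane relatives included PTGES and MGST3, both higher in knockdown. Of 13 tested 2 rose (15.4%, against 5.89% of all genes) and 0 fell (median log2 fold change 0.26); at an unadjusted p under 0.05, 4 were higher and 0 lower, and DESeq2 and limma-voom each called 2 higher and 0 lower. PTGES, a prostaglandin E synthase, rose to 164 ± 5.22 CPM in knockdown, against 99 ± 20.5 CPM in scramble (0.73, adjusted p = 0.0265). MGST3 rose to 117 ± 4.17 CPM in knockdown, against 70.7 ± 15.1 CPM in scramble (0.72, adjusted p = 0.0306). These calls were lost without any 1 of the knockdown libraries or of scramble replicates 1 and 2 (adjusted p from 0.0978 to 0.149), while leaving out scramble replicate 3 gave 0.91 for each. GSTP1 (0.26, adjusted p = 0.427) and GSTO1 (0.02, adjusted p = 0.967) did not pass. The fit that omits scramble replicate 3 called both higher, GSTP1 at 0.48 (adjusted p = 6.27e-11) and GSTO1 at 0.21 (adjusted p = 0.00264), among 7 higher (53.8%, against 25.7% of all genes) and 0 lower (against 23.8%).

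Peroxidases, thioredoxins and glutaredoxins held GPX3, the largest called fold change in the 7 lists. Of 27 tested 3 rose (11.1%, against 5.89% of all genes) and 2 fell (7.41%, against 5.64%), with a median log2 fold change of 0.15. At an unadjusted p under 0.05, 12 were higher and 3 lower, DESeq2 called 4 higher and 2 lower, and limma-voom 2 and 2. GPX3, a secreted glutathione peroxidase, rose to 38.5 ± 3.82 CPM in knockdown, against 8.63 ± 2.41 CPM in scramble (2.16, adjusted p = 0.000401, and 2.37 without scramble replicate 3). CAT, catalase, rose to 93 ± 3.38 CPM in knockdown, against 38.4 ± 1.15 CPM in scramble (1.28, adjusted p = 0.00068, and 1.27 without scramble replicate 3), and scramble replicate 3 was at 38.2 CPM. TXNIP, which binds thioredoxin and curbs glucose uptake, fell to 25.7 ± 1.85 CPM in knockdown, against 68.1 ± 7.48 CPM in scramble (-1.41, adjusted p = 0.000741, and -1.32 without scramble replicate 3). SESN2, a stress-induced sestrin, fell (-0.98, adjusted p = 0.00811; lost at 0.0603 and 0.0672 without knockdown replicates 2 and 3, and -0.81 without scramble replicate 3). PRDX1 (0.23, adjusted p = 0.478) and the thioredoxin gene TXN (0.38, adjusted p = 0.141) did not pass. The fit that omits scramble replicate 3 called both higher, PRDX1 at 0.44 (adjusted p = 8.61e-11) and TXN at 0.51 (adjusted p = 3.82e-11), among 17 higher (63%, against 25.7% of all genes) and 3 lower (11.1%, against 23.8%).

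The list of NADPH-producing enzymes also holds pathway neighbours that do not chiefly make NADPH, such as TKT and MTHFD2. Its counts are therefore not a measure of NADPH supply. The list showed 0 higher and 1 lower (5.56%, against 5.64% of all genes) of 18 tested (median log2 fold change -0.17). At an unadjusted p under 0.05, 0 were higher and 4 lower. DESeq2 and limma-voom each called 0 higher and 1 lower. The mitochondrial folate enzyme gene MTHFD2 fell to 421 ± 16.1 CPM in knockdown, against 601 ± 62.4 CPM in scramble (-0.51, adjusted p = 0.0449; 0.111 with the replicate number as a block, 0.058 with no filter on low counts and 0.109 to 0.24 when a library other than scramble replicate 3 was left out; -0.59 without that library). TKT (-0.37, adjusted p = 0.225) and PGD (-0.15, adjusted p = 0.626), of the pentose phosphate pathway, did not pass. Omitting scramble replicate 3 left TKT called lower (-0.15, adjusted p = 2.79e-05) and PGD not called (0.04, adjusted p = 0.212), among 3 called higher (16.7%, against 25.7% of all genes) and 10 lower (55.6%, against 23.8%).

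Heme and iron genes beside HMOX1 had 1 higher and 1 lower of 11 tested (9.09% each, against 5.89% and 5.64% of all genes; median log2 fold change 0.07). At an unadjusted p under 0.05, 1 was higher and 3 lower, and DESeq2 and limma-voom each called 1 higher and 1 lower. FLVCR1, a heme and choline transporter, rose to 118 ± 2.99 CPM in knockdown, against 32.9 ± 11 CPM in scramble (1.84, adjusted p = 0.0016, and 1.59 without scramble replicate 3), and FTH1 is the gene that fell. FTL and the biliverdin reductase gene BLVRB (-0.50, adjusted p = 0.135) did not pass. The fit that omits scramble replicate 3 called BLVRB lower (-0.26, adjusted p = 5.06e-06), among 5 higher (45.5%, against 25.7% of all genes) and 4 lower (36.4%, against 23.8%).

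**Figure D4:**
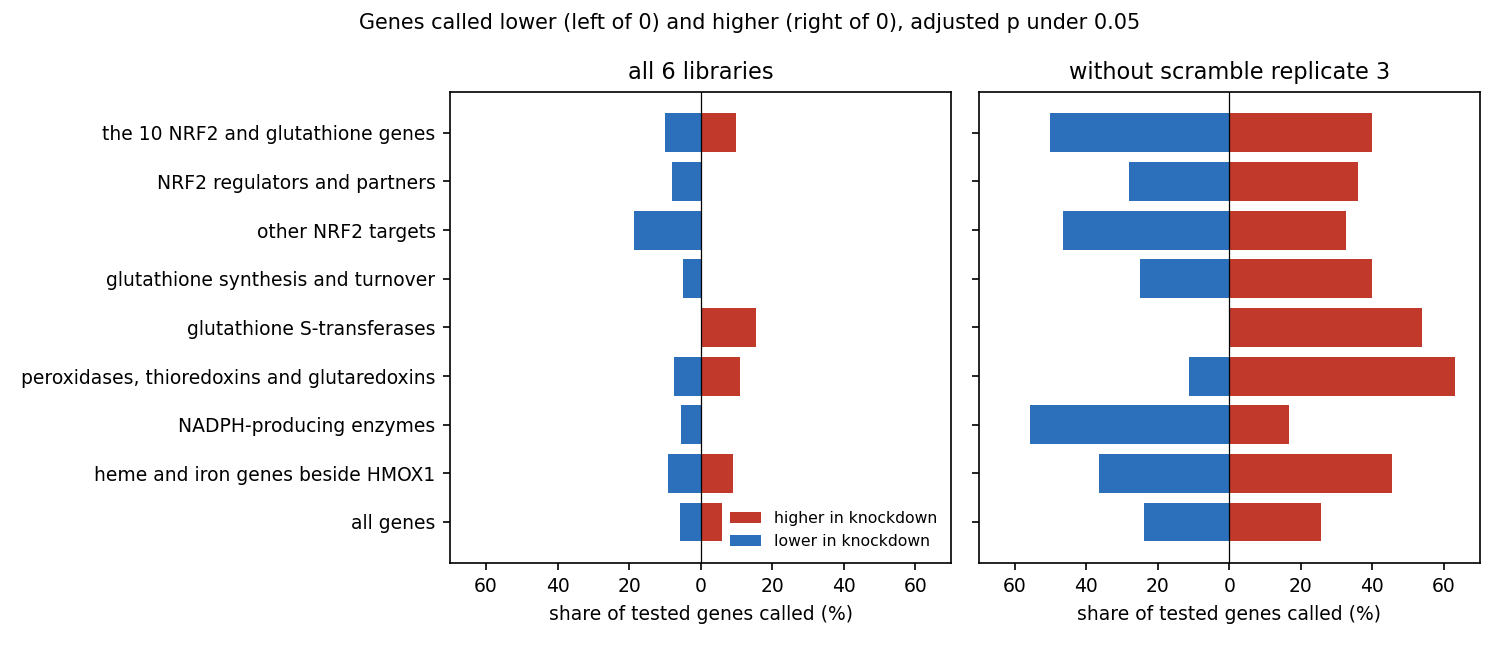
Share of tested genes called lower (blue, left of 0) and higher (red, right of 0) in knockdown, in percent, for the 10 genes, the 7 lists and all genes, with all 6 libraries (left panel) and without scramble replicate 3 (right panel). With all 6 libraries 8 of 43 other NRF2 targets were called lower (18.6%, against 5.64% of all genes) and 0 higher. DESeq2 called 8 lower and 1 higher, and limma-voom 6 lower and 0 higher. The calls of TRIM16 and TRIM16L may not be separate, and the list was chosen with earlier results of these data known. Of 13 glutathione S-transferases and their membrane relatives 2 were called higher, PTGES and MGST3 (15.4%, against 5.89%), too few to be read as apart from that share. Without scramble replicate 3, 14 targets were called higher (32.6%, against 25.7% of all genes) and 20 lower (46.5%, against 23.8%).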

How the data were processed

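RNA of A549 cells was sequenced in 6 libraries, 3 per group, and each deposited file holds a single library. The authors deposited RSEM expected counts per gene, per the file headers, with FPKM values scaled by the authors for length and depth and a mean transcript length in bases. The submitters' processing notes name RSEM, Bowtie2, BWA and the build hg19, with neither role nor version stated. No row held a count of 0, so a missing gene was taken as 0; 3 counts, at most 0.293 CPM, are the limit that a count of 0 allows, for counting error only. Of 20824 IDs, 20727 matched symbols (RefSeq, GRCh38.p14, names only); the other 97 held 0.147% of counts.

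Expected counts were rounded and fitted with edgeR 4.0.16 in R 4.3.3 (filterByExpr with minimum count 10 and total 15, TMM, quasi-likelihood test, Benjamini-Hochberg over all genes, threshold 0.05), knockdown over scramble without covariates. DESeq2 1.42.0 and limma 3.58.1 were alternatives, with RLE and upper-quartile scaling, other filters, the replicate number as a block and each library left out. A spline correction (5 degrees of freedom each for GC content and length per library) was added after seeing the data; GC came from GENCODE transcripts matched by RefSeq accession. Differences of scramble replicate 3 used log2 of CPM plus 0.5. The genes and lists were chosen with earlier results of these data known. From each list up to 4 called genes with the smallest p-values and the 2 most abundant uncalled genes are named, beside C19orf12 and the 3 genes nearest to NFE2L2 and NQO1. Some genes that this rule or the marker lists name are not reported here. The edgeR, DESeq2 and limma-voom fits were tested on simulated counts with the same spread setting for all genes, no outlying library and no GC trend. That test does not cover the shift of scramble replicate 3 or the GC and length correction.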

Additional observations from a re-analysis of the deposited data

How the results depend on the processing

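For all 10 genes, direction and side of the threshold stayed the same under RLE and upper-quartile scaling, both other filters, the replicate block, DESeq2 and limma-voom. Leaving out single libraries moved the genes called from 1708 (11.5% of those tested) to between 729 (4.85%) and 7439 (49.5%). The calls among the 10 genes moved to between 0 and 4 higher and 0 and 5 lower. Those in the 7 lists moved to between 3 and 55 higher and 4 and 42 lower. The top of each range came without scramble replicate 3, where 25.7% of all tested genes were called higher and 23.8% lower. Without any 1 knockdown library 0 of the 10 genes were called by edgeR in each direction, with 1 higher and 1 lower at an unadjusted p under 0.05; DESeq2 was not run there. The GC and length correction gave 4905 genes called, with 15.2% of all tested genes higher and 19.2% lower. Among the 10 genes 1 was then higher and 3 lower, and in the lists 28 genes were higher and 34 lower.

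Signs reversed without scramble replicate 3 for NFE2L2 (-0.07), KEAP1 (0.16), GCLM (-0.13), HMOX1 (0.11), SLC3A2 (0.09) and PGD (0.04); with the correction for KEAP1 (0.06), GCLM (-0.22) and HMOX1 (0.01); without knockdown replicate 2 for GCLM (-0.01); and without scramble replicate 2 for AKR1B10 (-0.03). GSTO1 reversed under upper-quartile scaling (-0.02) and without knockdown replicate 1 (-0.00), scramble replicate 1 (-0.09) or scramble replicate 2 (-0.07). Over all single-library omissions the log2 fold changes ran from -0.07 to 0.35 for NFE2L2, -0.16 to 0.16 for KEAP1, -0.13 to 0.13 for GCLM, -0.22 to 0.11 for HMOX1, -0.03 to 0.23 for AKR1B10, -0.23 to 0.09 for SLC3A2, -0.09 to 0.21 for GSTO1 and -0.26 to 0.04 for PGD. The cause was not tested.

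Pairing by replicate number was not detected: deviations from group means correlated at -0.0168, -0.0323 and -0.0224 for equal numbers. The scramble deviations hold the large shift of scramble replicate 3, so these correlations could miss a weaker pairing. With the replicate block 1654 genes were called, with 1 higher and 1 lower among the 10 genes and 5 higher and 10 lower in the lists.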

Other observations

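Aldo-keto reductases of the AKR1C group, named here after their values were seen, differed among themselves in a way that depended on the fit. Adjusted p-values here are edgeR's. AKR1C3 measured 1741 ± 12.9 CPM in knockdown and 2531 ± 520 CPM in scramble (log2 fold change -0.54, adjusted p = 0.0608). AKR1C2 measured 1920 ± 15.7 CPM in knockdown and 2466 ± 195 CPM in scramble (-0.36, adjusted p = 0.0983). AKR1C1 measured 1828 ± 54.7 CPM in knockdown and 1654 ± 357 CPM in scramble (0.14, adjusted p = 0.652), and the fit omitting scramble replicate 3 called it higher (0.34, adjusted p = 1.88e-09) where AKR1C2 (-0.30, adjusted p = 2.78e-09) and AKR1C3 (-0.36, adjusted p = 1.54e-10) were called lower. With the GC and length correction all were on the lower side. AKR1C1 was at -0.11 (adjusted p = 0.768), AKR1C2 at -0.64 (adjusted p = 0.0418) and AKR1C3 at -0.73 (adjusted p = 0.0174). These genes are close relatives, so the estimate divides reads among them and each value is uncertain.

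GPX2, a glutathione peroxidase of epithelia, and ABCC1, an exporter of glutathione conjugates, also chosen after their values were seen, lay on the higher side. GPX2 measured 296 ± 4.97 CPM in knockdown and 195 ± 48.2 CPM in scramble (0.60, adjusted p = 0.0696, where DESeq2 called it higher with adjusted p = 0.0369); omitting scramble replicate 3 gave 0.82 (adjusted p = 2.59e-13). ABCC1 measured 641 ± 18.4 CPM in knockdown and 445 ± 95 CPM in scramble (0.53, adjusted p = 0.0818); omitting scramble replicate 3 gave 0.72 (adjusted p = 8.37e-14). ABCC3, a related exporter, was called lower in both settings.

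PRDX2, a peroxiredoxin, had 1 count in knockdown replicate 2 and was not listed in the other libraries. How the estimate assigned reads to PRDX2 was not tested, so absence of its RNA from these cells is not read from this.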
